A study of Homo sapiens with 3 samples.

Results

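The HOXC cluster genes are 7 gene IDs that lie within 150 kb on chromosome 12, taken from the 13356 gene IDs with at least 1 peak of RNA bound by CSTF2tau. They are not all the gene IDs with peaks in that window. They are HOXC4 (ENSG00000198353), HOXC5 (ENSG00000172789), HOXC6 (ENSG00000197757), HOXC8 (ENSG00000037965), HOXC9 (ENSG00000180806), HOXC10 (ENSG00000180818) and HOTAIR (ENSG00000228630). Peaks were chosen by these IDs in the peak names, and the genes were picked with the values of these lists in view, so their levels are given as descriptions with no test. CSTF2tau contacts RNA as part of the cleavage stimulation factor (CSTF), and it was studied in BE(2)-C, an established human neuroblastoma cell line. In sCLIP, proteins are fixed to the RNA they touch by ultraviolet light, the RNA is trimmed, and what an antibody pulls down, here anti-CSTF2tau A301-486A from Bethyl, is sequenced. The only group was 3 biological replicates of cells labelled WT, and no control antibody or input library was used here. Every value therefore describes replicates of a single line, and the p-values below measure reads within these libraries.

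HOX genes encode homeodomain transcription factors that set regional identity along the body axis, and their order on the chromosome follows the order in which they act from head to tail. In the HOXC cluster all the protein-coding genes run in the same direction and some share transcripts and first exons, while HOTAIR is a long non-coding RNA transcribed from the opposite strand. CSTF binds the GU-rich RNA downstream of a cleavage site, and the upstream poly(A) signal with the hexamer AATAAA is bound by another complex, CPSF. The shared starts are visible in the reference: the RefSeq table holds promoters for 2 of the 7 genes, HOXC4 and HOXC5, and the 250 bases before their start are the same sequence, at chr12:54016638-54016887 of GRCh38.p14 on the plus strand. It is printed because peaks of these 2 genes were listed at the same positions in replicates 2 and 3. HOXC6 was listed at many of these positions too, and a link between this sequence and the peaks was not tested. Capitals mark AATAAA on this strand and TTTATT, its match on the other strand, each found 1 time without overlap.

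HOXC4 and HOXC5 promoter: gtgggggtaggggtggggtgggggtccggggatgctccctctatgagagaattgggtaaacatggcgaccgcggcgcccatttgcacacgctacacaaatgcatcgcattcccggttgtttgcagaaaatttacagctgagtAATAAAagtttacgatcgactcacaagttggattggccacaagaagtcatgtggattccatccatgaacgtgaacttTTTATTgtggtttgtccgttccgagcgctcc

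The hexamer on either strand occurred in 16.0% of the 35116 promoter windows of this length in the table, so its presence here is only a description of the letters. All positions from here on are of hg19, the build of the peak lists. No sequence or annotation of that build was used here, so exon, intron and UTR are not assigned.

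The libraries differed in size and in 2 properties that touch these genes. Replicates 1, 2 and 3 listed 105203, 18346 and 78761 peaks. Counted once per position, these peaks held 695548, 100489 and 365622 reads, the number in each peak name being read as its reads. Plus-strand genes were less represented in replicate 3, where minus-strand reads made up 63.4% of the nuclear total; the figure was 48.9% for replicate 1 and 50.2% for replicate 2. The gene IDs of replicate 1 also carried other version numbers: 46.5% of the 4723 IDs shared with replicate 2 and 43.6% of the 8808 shared with replicate 3 differed in version, against 0 of 4640 between replicates 2 and 3. HOXC4 was among them, with version 6 in replicate 1 and version 5 in replicates 2 and 3. For a gene ID missing from replicate 1 alone, the naming and the RNA cannot be told apart from the ID.

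The 7 genes together took a small share of the listed reads, which was highest in replicate 2. Peaks that overlapped on the same strand were joined into a position, and a position listed under several gene IDs was counted once. There were 19 positions with 154 reads in replicate 1, 14 positions with 90 reads in replicate 2 and 13 positions with 80 reads in replicate 3. Replicate 1 had 0.0221% of its reads there (95% exact interval 0.0188 to 0.0259%), replicate 2 had 0.0896% (0.0720 to 0.110%), and replicate 3 had 0.0219% (0.0174 to 0.0272%). Replicates 1 and 3 lay within each other's intervals, and replicate 2 lay 4.05-fold above replicate 1, outside both. The mean was 0.0445% ± 0.0390 (SD, n = 3), and 0.0220% without replicate 2. As a share of the plus-strand nuclear reads alone, the plus-strand HOXC positions held 0.0415%, 0.185% and 0.0604% in replicates 1, 2 and 3, so on this scale replicate 3 was 1.46-fold above replicate 1. These intervals cover only the counting error of independent reads. Reads of a peak need not be independent molecules, so the intervals may be too narrow.

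All of the repeated listing came from the plus-strand genes. The 46 positions of the 3 replicates were written as 96 lines under the 7 IDs. In replicate 1, 13 of 19 positions carried a single member ID and 6 carried 2. In replicates 2 and 3, 9 positions each carried 3 member IDs, and only 1 of their 27 positions carried a single one. Naming thus differed between the lists at the same genes. In a window of 150 kb around these genes, 5 further gene IDs had peaks, 4 of them in replicate 1 alone, and 15 of the 19 HOXC positions of replicate 1 were also listed under such an ID, against 2 of 14 in replicate 2 and 2 of 13 in replicate 3. No symbol is given for these IDs in the tables used here.

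**Figure D1:**
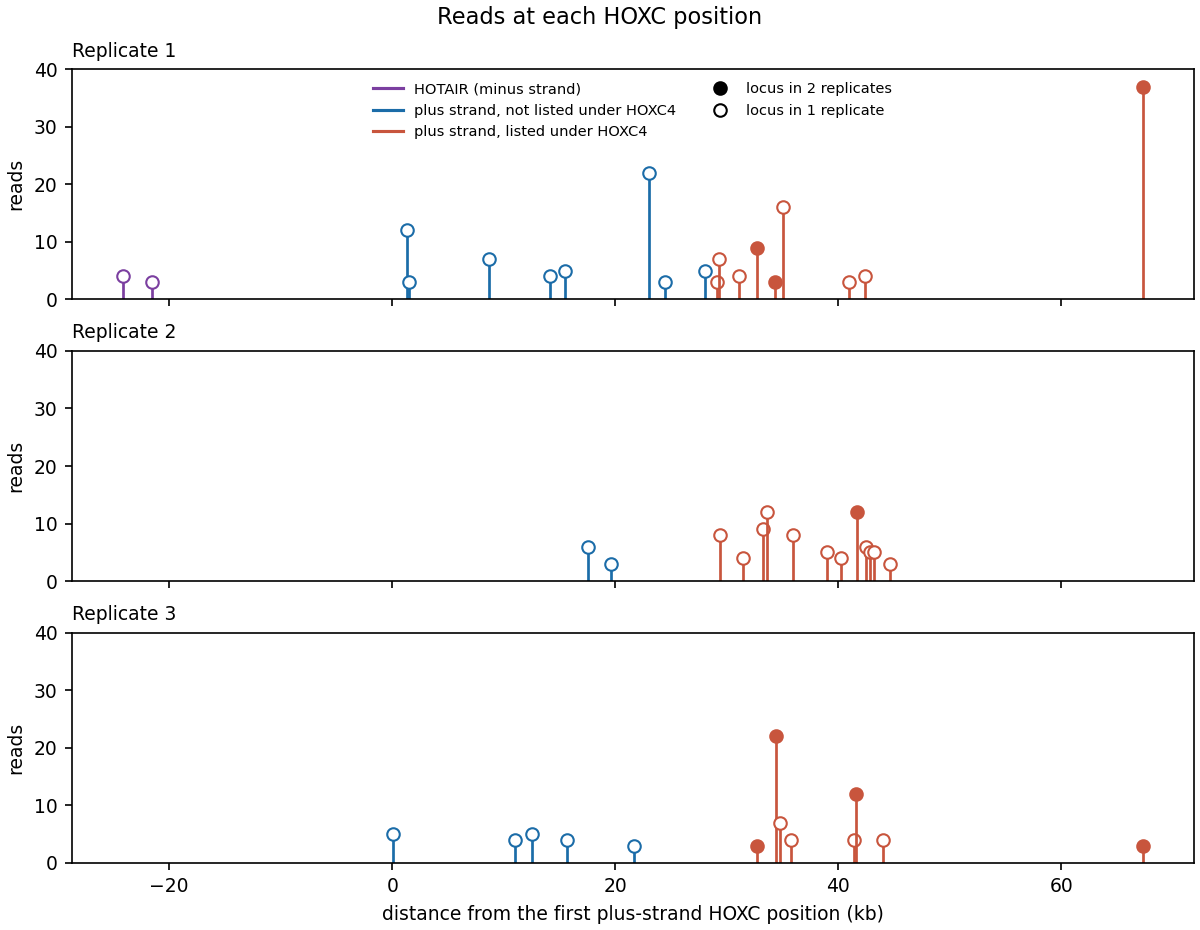
Reads at each HOXC position (vertical axis) against the distance in kb from the first plus-strand HOXC position (horizontal axis), with 1 panel per replicate; each stem is a position, its colour gives HOTAIR, plus-strand positions not listed under HOXC4 and positions listed under HOXC4, and filled points are loci found in 2 replicates. The stems of replicates 2 and 3 crowd between 29.1 and 44.6 kb, where replicate 1 has 8 of its 19 positions. The tallest stem, 37 reads in replicate 1, stands alone at the downstream end.

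HOTAIR, a non-coding RNA known for its reported link to the Polycomb repressive complex PRC2, was the only member on the minus strand and was listed only in replicate 1. It had 2 peaks there, chr12:54357840-54357977 with 4 reads and chr12:54360459-54360530 with 3 reads, which is 0.00101% of the reads (exact interval 0.000405 to 0.00207%). The authors' smallest p-value for them was 0.0138. Both are close to the lowest number of reads that any list holds for a peak, which is 3. At the share of replicate 1, 1.01 reads would fall on both peaks together in replicate 2 and 3.68 in replicate 3, so a level like that of replicate 1 could not be told from none in those lists. HOTAIR reads were 4.46% of the reads in the window in replicate 1 (exact interval 1.81 to 8.97%), and no minus-strand peak was listed there in replicates 2 and 3. Nuclear reads as a whole were 48.9%, 50.2% and 63.4% minus-strand in replicates 1, 2 and 3, so the window was mainly plus-strand in all 3.

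HOXC10 and HOXC9, posterior genes of the cluster, and HOXC8, a central one, had few peaks, in replicates 1 and 3 only. HOXC10 had 2 peaks with 12 and 3 reads in replicate 1, at chr12:54383315-54383423 and chr12:54383492-54383564, and 1 peak with 5 reads in replicate 3, at chr12:54382056-54382133. The peaks of the 2 replicates did not overlap, and the shares of 0.00216% (exact interval 0.00121 to 0.00356%) and 0.00137% (0.000444 to 0.00319%) lay within each other's intervals. The replicate 3 peak was also listed under HOXC5.

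HOXC9, known to promote neuronal differentiation in neuroblastoma cells, had 11 reads in 2 peaks in replicate 1 and 9 reads in 2 peaks in replicate 3. The peaks lay at different positions, chr12:54390663-54390757 and chr12:54396177-54396237 in replicate 1 and chr12:54393033-54393098 and chr12:54394574-54394648 in replicate 3. Their shares of 0.00158% and 0.00246% did not differ beyond counting error. Both replicate 3 peaks were also listed under HOXC5 and HOXC6, and the first replicate 1 peak, with 7 of the 11 reads, also under HOXC6, so RNA of these genes cannot be told apart there.

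HOXC8, which in the mouse acts in motor neurons of the limb region, had the clearest signal of these 3 genes in replicate 1. Its peak at chr12:54405011-54405154 held 22 reads, and only 2.74% of the positions of that list held as many. A further peak at chr12:54406447-54406509 held 3 reads. In replicate 3 the single HOXC8 peak, chr12:54403692-54403756, held 3 reads, so the share was 0.00359% in replicate 1 (exact interval 0.00233 to 0.00531%) and 0.000821% in replicate 3 (0.000169 to 0.00240%), intervals that overlap at their edges. All HOXC8 peaks were also listed under HOXC6. At the replicate 1 shares, HOXC8, HOXC9 and HOXC10 would have 3.61, 1.59 and 2.17 reads in replicate 2, too few for most single peaks to reach the lowest listed number.

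HOXC6, HOXC5 and HOXC4, at the other end of the cluster, held most of the reads, and in replicate 2 they held all of them. HOXC6 had 60, 77 and 68 reads in replicates 1, 2 and 3, in 8, 11 and 10 peaks. Its share averaged 0.0346% ± 0.0367 (SD, n = 3), with 0.00863% in replicate 1, 0.0766% in replicate 2 and 0.0186% in replicate 3. By this listing replicate 2 was 8.88-fold above replicate 1. In replicate 1, however, 6 of the 14 HOXC positions in the span of the HOXC6 peaks did not carry its ID, while in replicates 2 and 3 all 11 and 10 did. With every position of the span counted, replicate 1 had 95 reads, a share of 0.0137% (exact interval 0.0111 to 0.0167%), and replicate 2 was 5.61-fold above it. The interval of replicate 2 lay above the others, and those of replicates 1 and 3 then overlapped.

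HOXC4, which in B cells is known to act on the gene of the deaminase that starts antibody class switching, had 86, 81 and 59 reads in 9, 12 and 8 peaks. Its share averaged 0.0364% ± 0.0384 (SD, n = 3), with 0.0124% in replicate 1, 0.0806% in replicate 2 and 0.0161% in replicate 3. The intervals of replicates 1 and 3 overlapped and that of replicate 2 lay above both.

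HOXC5, a further homeodomain gene, had 90 reads in 14 peaks in replicate 2, a share of 0.0896%, and 76 reads in 12 peaks in replicate 3, a share of 0.0208%, and had no listed peak in replicate 1. All 14 HOXC positions of replicate 2 were listed under HOXC5, and every HOXC5 peak of either list was also listed under another member. The stretch itself was not empty in replicate 1: 16 positions with 110 reads lay inside the span of the HOXC5 peaks, chr12:54382059-54426705, under other IDs. Since these 3 genes share positions and their lengths were not used, their levels are not ordered against each other.

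**Figure D2:**
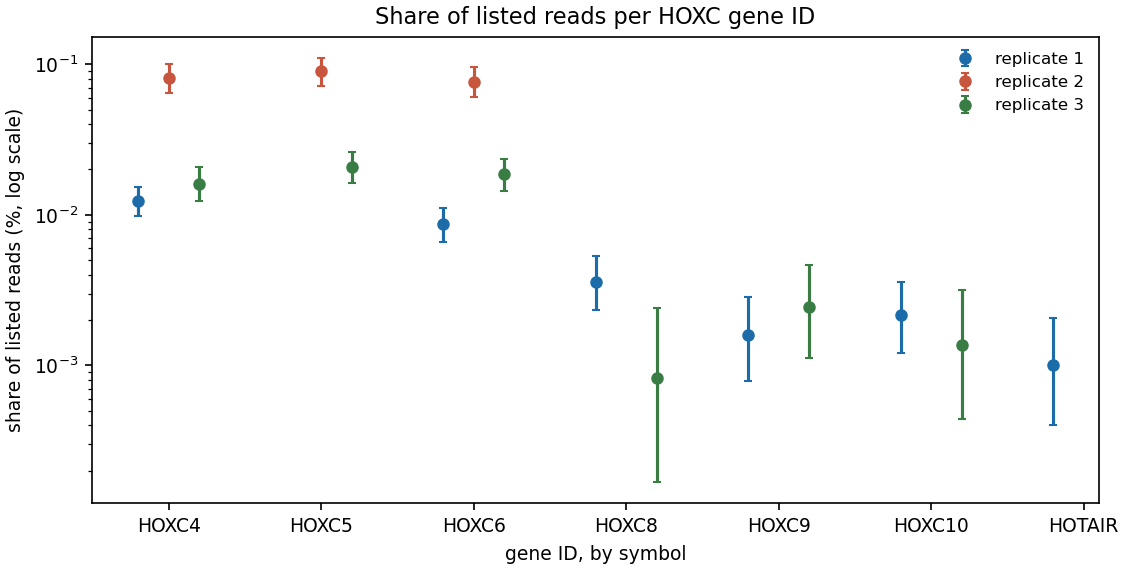
Share of listed reads in percent on a log axis for each of the 7 gene IDs, with points for replicates 1, 2 and 3 and bars for the 95% exact interval of counting error; an ID with no listed peak in a replicate has no point there. HOXC4, HOXC5 and HOXC6 reach 0.0766 to 0.0896% in replicate 2, and HOXC8, HOXC9, HOXC10 and HOTAIR have no point for that replicate.

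Recovery of the gene IDs over the replicates was near that of all IDs. HOXC4 and HOXC6, 2 of the 7, had peaks in all 3 lists, beside 33.0% of the 13356 gene IDs. In replicates 1 and 3 alone, 5 of the 7 were in both lists, beside 67.1% of the gene IDs in either. Among the 4414 IDs in all 3 lists, the share in replicate 2 over that in replicate 1 had a median of 1.21 and quartiles of 0.587 and 2.55, and 7.86% of IDs were at or above the 6.52-fold of HOXC4, 4.37% at or above the 8.88-fold of HOXC6 as listed. The ratio of replicate 3 over replicate 1 was 1.31 for HOXC4 and 2.16 for HOXC6, beside a median of 1.06; with every position of the HOXC6 span counted it was 1.36 for HOXC6.

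**Figure D3:**
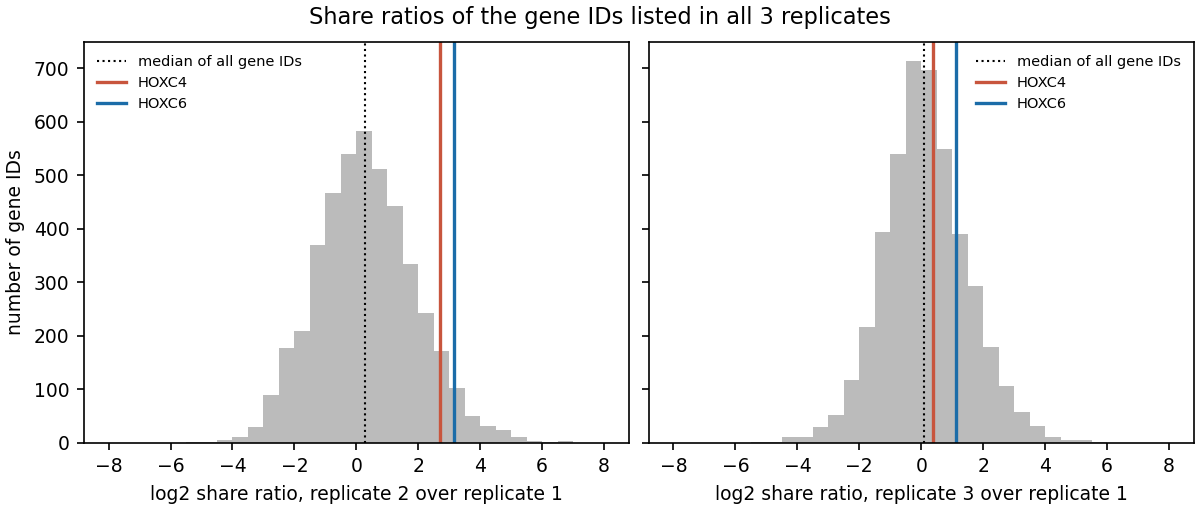
Number of gene IDs (vertical axis) by the log2 ratio of their shares, replicate 2 over replicate 1 on the left and replicate 3 over replicate 1 on the right, for the 4414 gene IDs in all 3 lists; the dotted line is the median and the coloured lines are HOXC4 and HOXC6. On the left both genes lie to the right of the upper quartile, 2.55-fold, with 6.52-fold and 8.88-fold as listed.

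Among the listed peaks, the higher share of replicate 2 lay in a limited stretch of the plus strand. The plus-strand positions were divided, after their values had been seen, into those not listed under HOXC4 in any replicate, those listed under HOXC4, and the most downstream position, which stood 22.5 kb beyond the next. The upstream stretch, chr12:54382056-54410122, had 8, 2 and 5 positions with 61, 9 and 21 reads in replicates 1, 2 and 3. Its share was 0.00877%, 0.00896% and 0.00574%, and the exact intervals of the 3 values overlapped. That of replicate 2, from 9 reads, was wide, 0.00410 to 0.0170%. No list holds a peak of fewer than 3 reads, so weak positions could be missing from the smallest list, and the shares compare listed reads only. The dense stretch, chr12:54411109-54426705, had 8, 12 and 7 positions with 49, 81 and 56 reads. Replicate 1 had a share of 0.00704% there (exact interval 0.00521 to 0.00931%), replicate 2 had 0.0806% (0.0640 to 0.1002%), and replicate 3 had 0.0153% (0.0116 to 0.0199%). The 3 intervals were apart, and replicate 2 was 11.4-fold above replicate 1 and 5.26-fold above replicate 3. Because the stretch was drawn from these same positions, the separation is a description and no test.

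As a part of the HOXC reads, the dense stretch held 63.9% ± 29.6 (SD, n = 3) on average, which was 31.8% in replicate 1, 90% in replicate 2 and 70% in replicate 3. It is 15.6 kb long, against 28.1 kb for the upstream stretch. Reads per kb were higher in the dense than in the upstream stretch in each replicate. The dense stretch had 3.14 and the upstream stretch 2.17 reads per kb in replicate 1, and these values were 5.19 and 0.321 in replicate 2 and 3.59 and 0.748 in replicate 3. The stretches were drawn from these positions, so this is a description of where the reads lay.

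**Figure D4:**
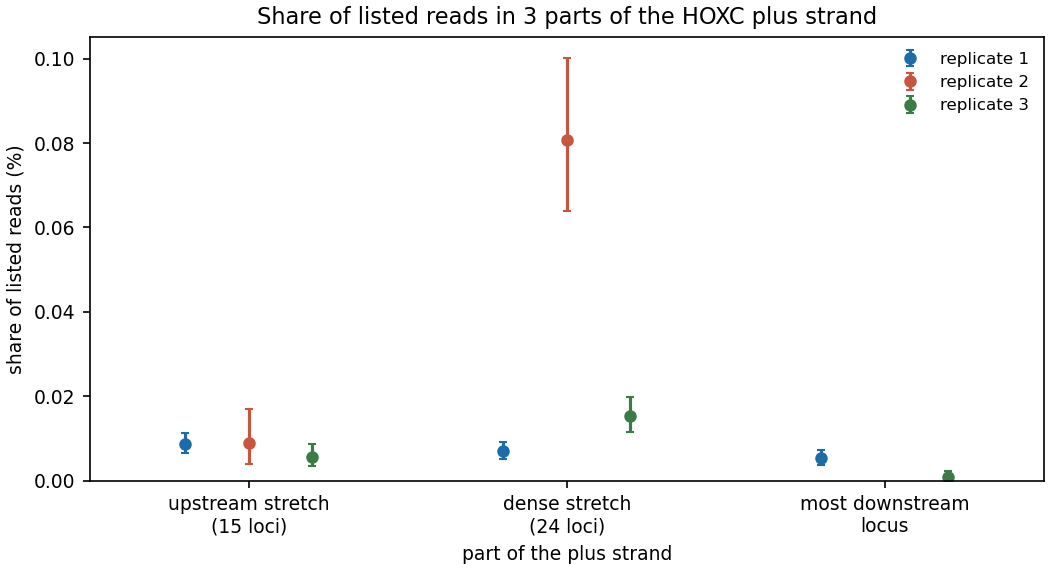
Share of listed reads in percent in the upstream stretch, the dense stretch and the most downstream locus of the plus strand, with points for replicates 1, 2 and 3 and bars for the 95% exact interval of counting error; replicate 2 had no listed peak at the last locus and has no point there. The 3 replicates lie between 0.00574 and 0.00896% in the upstream stretch, while in the dense stretch replicate 2 reaches 0.0806%.

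Exact positions were seldom found in more than 1 replicate. Joined over the replicates, the HOXC positions formed 42 loci, 40 on the plus strand and 2 on the minus strand. None was present in all 3 replicates, beside 0.889% of all 172167 loci, and 4 (9.52%) were present in 2, beside 8.57% of all loci in 2 or more. With all peaks, the recovery of HOXC loci was thus near that of loci in general. It was 1 of 25 HOXC loci, beside 8.80% of all, among peaks at or below the median p-value of their list, and 1 of 23, beside 8.62%, among peaks of at least 5 reads. All 4 lay in the stretch listed under HOXC4 or at its downstream end. Of the 46 positions, 8 (17.4%) overlapped a position of another replicate, beside 17.7% of all positions.

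The locus chr12:54423615-54423753, listed under HOXC4, HOXC5 and HOXC6, had the highest mean share, 0.00507% ± 0.00617 (SD, n = 3), and the largest overlap between its 2 peaks, 126 nt. It held 12 reads in replicate 2 and 12 in replicate 3, with starts 1 nt apart and ends 12 nt apart. The stretches of at most 4 nt that the authors give inside each peak lay 7 nt apart. Replicate 1 had no listed peak there, although the share of replicate 3 would give 22.8 reads in replicate 1. The share of replicate 2 was higher and would give 83.1 reads in replicate 1 and 43.7 in replicate 3, where 12 were listed.

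The locus chr12:54449250-54449398, the most downstream, was listed under HOXC4 alone of the 7. In replicate 1 it was also listed under ENSG00000273266, a gene ID outside the 7. The locus held 37 reads in replicate 1, which is 24.03% of the HOXC reads of that replicate, and 0.557% of the positions in that list held as many. Replicate 3 had 3 reads there, at chr12:54449322-54449368, and replicate 2 had no listed peak. The authors' short stretches lay 6 nt apart in replicates 1 and 3, but the share of replicate 1 was 6.48-fold higher and would give 19.4 reads in replicate 3 and 5.35 in replicate 2.

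At chr12:54416377-54416487, replicate 3 had 22 reads, 27.5% of its HOXC reads, and replicate 1 had 3. The short stretches were 39 nt apart, and the share of replicate 3 would give 41.9 reads in replicate 1. At chr12:54414642-54414791, replicate 1 had 9 reads and replicate 3 had 3, with the short stretches 77 nt apart. Replicate 2 had no listed peak at either. The strongest position of each replicate was thus weak or not listed in at least 1 other.

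**Figure D5:**
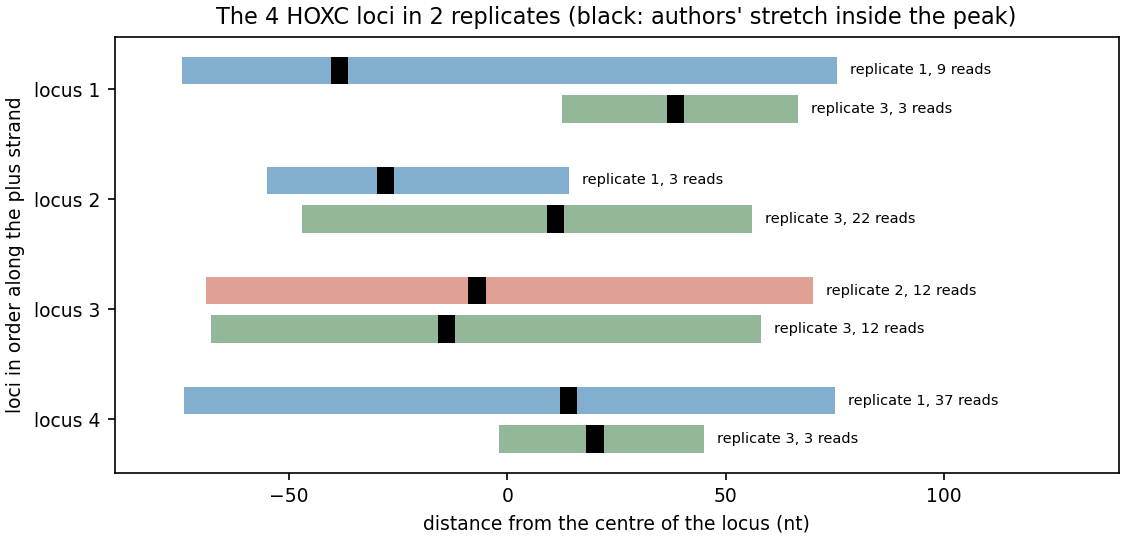
The 4 HOXC loci found in 2 replicates, in order along the plus strand, as bars from peak start to peak end against the distance in nt from the centre of the locus; the colour and text give the replicate and its reads, and black marks the authors' short stretch inside the peak. The stretches are 77, 39, 7 and 6 nt apart from the top locus to the bottom one.

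The other loci among the 10 with the highest mean share were 7, and 6 of them were found in replicate 2 alone within the dense stretch. Of these, chr12:54415592-54415688 held 12 reads, chr12:54415277-54415372 held 9, and chr12:54411429-54411509 and chr12:54417927-54418054 held 8 each. The remaining ones were chr12:54424492-54424563 with 6 reads and chr12:54425255-54425318 with 5, a number that 2 further loci of replicate 2 also held. The last of the 7, chr12:54399524-54399624, lay in the upstream stretch and held 6 reads in replicate 2. Because a read weighs more in the smallest list, this order favours replicate 2. By reads, the strongest position in replicate 1 beside those above was chr12:54416977-54417228, listed under HOXC4 and HOXC6, with 16 reads.

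HOXC peaks resembled other peaks in size. Reads per position ranged from 3 to 37 with a median of 4 in replicate 1, from 3 to 12 with a median of 5.5 in replicate 2 and from 3 to 22 with a median of 4 in replicate 3. The medians over all positions were 5, 4 and 4. Median widths were 78, 74.5 and 71 nt for HOXC positions, against 79, 72 and 69 nt for all.

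Since CSTF acts at mRNA 3' ends, reads in the last 10% of each gene ID's listed span were set against reads in the first 10%. The exact binomial test was two-sided and its p-values were adjusted over 6374 gene IDs by the Benjamini-Hochberg method. A call needed an adjusted p below 0.05 and agreement in direction among the replicates that had reads at either end. Calls favoured the 3' end in 18.2% of all gene IDs and the 5' end in 14.1%. The end window came from an earlier analysis of these data, each span was set by the same peaks, and reads were summed over replicates. The p-values therefore describe where the listed reads lay and are no evidence of an end bias. Of the 7 genes, 3 had enough loci and reads, and 1 was called. HOXC5, called at the 3' end, had 55 reads in the last 10% and 4 in the first (log2 ratio 3.62; exact binomial test, adjusted p = 1.7e-11). Replicate 2 contributed 35 and 0 of these, and replicate 3 contributed 20 and 4. The 4 reads came from a single position, chr12:54382056-54382133, which was also listed under HOXC10. HOXC5 had no peaks in replicate 1, and with the 16 positions of replicate 1 inside its span, which gave 7 against 15 reads, it was no longer called. These 15 reads were those of the HOXC10 peaks of replicate 1, with 12 and 3 reads, which carried no other member ID. The peak with 12 reads was also listed under ENSG00000273049, an ID that every HOXC6 position of that list carried too. Whether the 15 reads belong to HOXC5 RNA was not tested. The call was also lost without replicate 3 (exact binomial test, adjusted p = 0.15) and with each peak counted as 1 (adjusted p = 0.063).

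HOXC6 had 44 reads in the last 10% and 10 in the first (log2 ratio 2.08; exact binomial test, adjusted p = 1.7e-05), but replicate 1 had 6 against 6, so it was not called. The reads in its first 10% lay at positions that were also listed under HOXC9. HOXC4 had 40 against 38 reads (log2 ratio 0.07; exact binomial test, adjusted p = 0.99). Its replicates opposed each other, replicate 1 having 37 and 23 reads at the 3' and 5' end, replicate 2 having 0 and 12, and replicate 3 having 3 and 3. With the outer 20% of the span HOXC4 was called at the 5' end, with 40 against 119 reads (log2 ratio -1.56; exact binomial test, adjusted p = 1.7e-09). The share of all gene IDs called at that setting is not given here. A span ends where a listed peak ends, not at an annotated transcript end, the 3 spans overlap, and the tests cover counting error only.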

How the data were processed

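The build is hg19, per the submitters' processing notes, which also list FastQC, SAMtools, STAR and bedtools but neither their versions nor their roles. Neither a peak caller nor a gene annotation is named in what was used here. Each of the 3 lists, 1 per replicate, has 8 columns and no header; the p-value per peak is the authors' deposited value and was used to filter and describe peaks. The last number of the peak name was read as reads in the peak, because it falls as the p-value rises (Spearman rho -0.988 in replicate 1, -0.973 in replicate 2 and -0.964 in replicate 3); this reading is not stated anywhere, and all read values rest on it.

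Overlapping peaks of the same strand (at least 1 nt) were joined into positions within a replicate and into loci over replicates, and reads were taken from the ID with the most. Shares were divided by all reads so counted, and exact Clopper-Pearson intervals are at the 95% level. The end test needed 5 loci and 10 reads, with 0.5 reads added for the log2 ratio. Python 3.11.15, pandas 2.3.3 and SciPy 1.17.1 were used, and the merging and the end test were tested on simulated data.

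The members, lists and tests were chosen with earlier results of these data known. All 7 genes, loci in 3 replicates and the 10 loci with the highest mean share were to be named; the loci in 2 replicates, the stretches and the other single positions named were chosen after their values were seen. Of the files' gene IDs, 0 matched the reference table, so the symbols are those given with the member IDs, and other HOX genes and the markers of the cell line were not analysed here.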

Additional observations from a re-analysis of the deposited data

How the results depend on the processing

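The 5 main results had 33 alternative values, of which 21 stayed within 1 SD of the replicates or, for counts, within 1.5 times, and 12 moved. The mean HOXC share of 0.0445% became 0.104% with every listed line counted and 0.0956% as a share of plus-strand reads. That SD is wide: the share without replicate 2, 0.0220%, lay inside it. The 4 loci in more than 1 replicate became 1 when peaks above the median p-value of their list were dropped, 1 with peaks of at least 5 reads, and 0 to 3 when 1 replicate was left out (0 of 33 without replicate 3, beside 3.72% of all loci, and 1 of 26 without replicate 1, beside 3.43%). Without replicate 2 the count was 3 of 29, beside 6.52% of all loci. The 2 gene IDs in all replicates became 2 to 5 (5 without replicate 2). The 1 gene called for an end became 2 with the outer 20% of the span, 0 with peaks counted as 1, 0 with the positions of replicate 1 counted under HOXC5, and 0 to 2 when 1 replicate was left out (2 without replicate 1, HOXC5 and HOXC6; 0 without replicate 3). The HOXC6 ratios over its whole span, the plus-strand share, the positions added under HOXC5 and the share without the most downstream locus, 0.0425%, were chosen after seeing the data. The minus-strand share of the window, a mean of 1.49%, was 0% with either filter on peaks. No paired analysis was possible because there is 1 group.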

Other observations

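The running numbers in the peak names rose with position in all 3 lists, and many numbers had no listed peak. Among the HOXC gene IDs, 51.9%, 47.1% and 63.4% of the numbers up to the highest one had no listed peak in replicates 1, 2 and 3, against 54.4%, 60.2% and 52.6% over all gene IDs. In replicate 2 the first HOXC6 peak, at chr12:54399524-54399624, carried the number 8, so 7 numbers upstream of it had no listed peak. HOXC5 started there at 9. What an unlisted number stands for is not given in the sources used here.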
